A study of Homo sapiens with 346 samples.

Results

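The 9 genes described here encode parts of the tight junction: the claudins CLDN1, CLDN3, CLDN4, CLDN7 and CLDN12, the membrane proteins OCLN (occludin) and F11R (the adhesion molecule JAM-A), and the scaffold proteins TJP1 (ZO-1) and TJP3 (ZO-3). They were taken by name and make up 9 of the 28806 genes listed for HCT-116 and of the 29551 listed for HepG2. All 9 were listed in both tables. In fixed cells the messages of CLDN4 and TJP3 were more than 2-fold lower than in live cells in both lines, and that of CLDN3 was 2.04-fold lower in the HepG2-labelled cells. The messages of OCLN, TJP1, CLDN12 and F11R stayed within 2-fold in both lines.

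Tight junctions seal the space between neighbouring epithelial cells at the border of the apical and lateral membranes. Claudins span the membrane and their first extracellular loop sets which ions and small molecules pass between cells, so the set of claudins a cell makes is known to shape the tightness of an epithelium. Occludin and JAM-A are further membrane components, and the ZO proteins bind claudin tails on the inner side and tie the junction to actin.

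Single-cell Smart-seq2 libraries, which read along the whole length of polyadenylated messages, were made from HCT-116, a colorectal carcinoma line, and from cells labelled HepG2, the name of a hepatocellular carcinoma line. Both lines were grown in DMEM with serum and antibiotics, loosened with trypsin and divided into a part sorted at once (live) and a part held for 1 week at -80 °C in 80% methanol, rehydrated and then sorted (fixed). The tables held 91 live and 92 fixed HCT-116 cells and 68 live and 83 fixed HepG2-labelled cells, 334 in all. Labelled cells without a column numbered 4 fixed HCT-116, 7 fixed HepG2-labelled and 1 live HepG2-labelled. Levels and shares therefore describe only the cells in the tables. The labels name no genotype change, transgene or drug for any group.

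The question the comparison addresses is whether methanol fixation leaves the measured messages of a cell as they are. The labels name no separate cultures, so each line and treatment was taken as 1 sample, cells were not replicates of a treatment, no p-value was computed, and every SD below is the spread over cells. Fixed libraries were made a week after the live ones. Per the methods, live cells were stained with propidium iodide for sorting, and fixed cells were washed to remove methanol. Fixation, storage, this handling and the library batch therefore cannot be told apart. The HepG2 experiment was done in 2 rounds according to the methods, but the labels do not tell which cell came from which round.

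In HCT-116 the median cell had 2.5 M reads when live and 1.8 M when fixed, and in the HepG2-labelled cells 2.4 M and 2.0 M. Ribosomal RNA took on average 25.6% (live) and 7.78% (fixed) of the TPM of a HCT-116 cell, and 5.53% and 2.33% of that of a HepG2-labelled cell. Among the HepG2 columns 1 live and 1 fixed were equal over all 29551 genes, and 7 fixed columns and 1 live column correlated above 0.95 with another column. Leaving out those columns moved no member's ratio across the 2-fold line in any comparison. The shared column held the lowest TJP1 and OCLN values of both HepG2-labelled groups, 0.458 and 0.872 TPM. A single live HepG2-labelled cell had 20.5% of its reads assigned to transcripts.

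The cells labelled HepG2 did not carry the messages of liver cells. None of the 9 listed hepatocyte markers of the 17 looked for, APOA1 among them, reached 1 TPM in 50% of the cells in either group, and the summed level of these markers had a median of 1.30 TPM (live) and 1.11 TPM (fixed). Keratins were high, with KRT8 at a mean of 11421 TPM in live cells, and ESR1, the oestrogen receptor, stood at 47.7 TPM. Of 12 markers of luminal breast epithelium 10 passed the same line in live and 11 in fixed cells, against 5 of 11 listed in HCT-116 in each group. Markers of fibroblasts, blood and endothelium passed it 0 times in all 4 groups. These cells are therefore called HepG2-labelled here, and every statement on them is about an epithelial line whose liver identity the data do not show. HCT-116 cells expressed CDX2, an intestinal transcription factor, at a mean of 7.47 TPM live and 5.44 TPM fixed. The HepG2-labelled cells had a mean of at most 0.0101 TPM of it. Of 12 intestinal markers looked for, 6 were listed in HCT-116, and only CDX2 passed the same line there. In HepG2-labelled cells 8 were listed and 0 passed it.

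The claudins are recognised by a stretch of their first extracellular loop, a tryptophan followed by a glycine-leucine-tryptophan motif and a pair of cysteines. The coding bases of this stretch are shown for the 5 claudins because they show how alike CLDN3 and CLDN4 are, which bears on how their reads are assigned. They come from the GENCODE v44 reference transcripts on GRCh38, read 5′ to 3′ on the coding strand, and the capitals mark the codons of the signature residues.
CLDN1: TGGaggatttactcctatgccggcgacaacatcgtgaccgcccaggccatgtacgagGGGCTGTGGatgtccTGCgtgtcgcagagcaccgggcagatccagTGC
CLDN3: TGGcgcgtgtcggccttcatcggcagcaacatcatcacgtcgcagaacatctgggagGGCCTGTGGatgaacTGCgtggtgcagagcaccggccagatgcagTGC
CLDN4: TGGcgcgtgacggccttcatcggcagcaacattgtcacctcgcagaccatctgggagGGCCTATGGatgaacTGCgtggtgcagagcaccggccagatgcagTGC
CLDN7: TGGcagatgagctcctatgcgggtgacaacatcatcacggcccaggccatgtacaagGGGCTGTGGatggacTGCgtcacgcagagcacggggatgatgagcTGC
CLDN12: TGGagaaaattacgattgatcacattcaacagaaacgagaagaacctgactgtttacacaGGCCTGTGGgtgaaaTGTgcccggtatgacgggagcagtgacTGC

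The stretches lie within 1 coding exon each, at chr3:190322015-190322119 (minus strand) for CLDN1, chr7:73769861-73769965 (minus) for CLDN3, chr7:73831289-73831393 (plus) for CLDN4, chr17:7261852-7261956 (minus) for CLDN7 and chr7:90412773-90412877 (plus) for CLDN12. CLDN3 and CLDN4 had the same base at 99 positions (94.3%), with a longest identical run of 42 bases. CLDN1 and CLDN7 matched at 79.05% of positions. CLDN12 matched no other claudin at more than 33.3%, compared position by position without gaps. Its glycine-leucine-tryptophan and first cysteine codons lie further along than in the others, so this value is not the identity of aligned motifs. CLDN3 and CLDN4 are single-exon genes 60725 bases apart on chromosome 7 with no annotated gene between them, and they share 41 words of 31 bases, the default word length of kallisto, which is 3.30% of the words of CLDN3 and 2.46% of those of CLDN4. Reads falling wholly in those words cannot be assigned to one of the pair.

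The other genes are CLDN1 (chr3:190305707-190322446), CLDN7 (chr17:7259903-7262478), CLDN12 (chr7:90403461-90415954), OCLN (chr5:69492790-69558104), TJP1 (chr15:29700152-29822468), TJP3 (chr19:3708384-3750813) and F11R (chr1:160995211-161021152). Some of them share sequence with other annotated transcripts. F11R shared 46.4% of its 31-base words with other genes, most of them with a transcript that overlaps it on the same strand. CLDN7 shared 16.3%, mainly with an overlapping same-strand gene, and OCLN shared 15.1%, mainly with its partial copy OCLNP1. TJP1 shared 0.168% of its words and CLDN1 0. The words were counted in GENCODE transcripts, while the deposited transcripts carry RefSeq names, so the effect of sharing on these levels was not tested. Few shared words do not make a level certain, since the TJP1 ratio depended on how transcripts were summed, as given below. CLDN7 and TJP3 each overlap a gene on the opposite strand, ELP5 and APBA3, and the libraries do not record strand.

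Levels were compared as TPM, which are corrected for transcript length, and the HCT-116 and HepG2 tables were deposited separately. CLDN4 and CLDN7 were the highest of the 9 in live HCT-116 cells. CLDN4, a barrier-forming claudin, averaged 143.8 ± 114.4 TPM there, with a lowest cell at 11.9, a median of 116.3 and a highest cell at 698. CLDN7 averaged 157.3 ± 82.4 TPM, from 17.4 through a median of 146.2 to 407. The SDs were over 50% of the means, so individual cells of the group ranged widely and the order of CLDN4 and CLDN7 was not separated by the spread over cells. CLDN3, the close relative and neighbour of CLDN4, averaged only 17.02 ± 18.8 TPM in these cells and was listed at 0 in 19 of 91.

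HepG2-labelled live cells had another order, with CLDN4 first and CLDN3 second. CLDN4 averaged 348 ± 202 TPM in them, from 34.4 through a median of 291 to 885. CLDN3 averaged 280 ± 115.2 TPM, from 67.7 through 256 to 546, and no cell lacked it. CLDN7 averaged 178.9 ± 83.9 TPM, close to its level in HCT-116. The ranges of CLDN4, CLDN3 and CLDN7 overlapped widely.

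CLDN1, a claudin best known from the skin barrier, was nearly missing. It was listed above 0 in 1 of 91 live and 1 of 92 fixed HCT-116 cells, and in 16 of 68 live and 26 of 83 fixed HepG2-labelled cells. Its mean of 1.93 TPM in live HepG2-labelled cells had an SD of 8.84 and a highest cell at 71.4, so a few cells carried most of it. CLDN12, a claudin without the usual PDZ-binding tail, was low at 10.9 ± 7.497 TPM in live HCT-116 and 5.05 ± 5.07 TPM in live HepG2-labelled cells.

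The remaining members were far below the main claudins. F11R averaged 17.8 ± 8.23 TPM in live HCT-116 cells and 38.1 ± 13.5 TPM in live HepG2-labelled cells, and was listed above 0 in all of them. OCLN averaged 6.78 ± 5.28 and 17.4 ± 8.35 TPM, and TJP1, the scaffold that holds claudins in strands, 5.43 ± 3.63 and 8.70 ± 4.66 TPM. TJP3 averaged 13.2 ± 14.3 and 12.5 ± 9.49 TPM, more than TJP1 in 61 of 91 and 41 of 68 live cells. F11R had the smallest spread relative to its mean of the 9 genes in live cells of both lines.

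**Figure D1:**
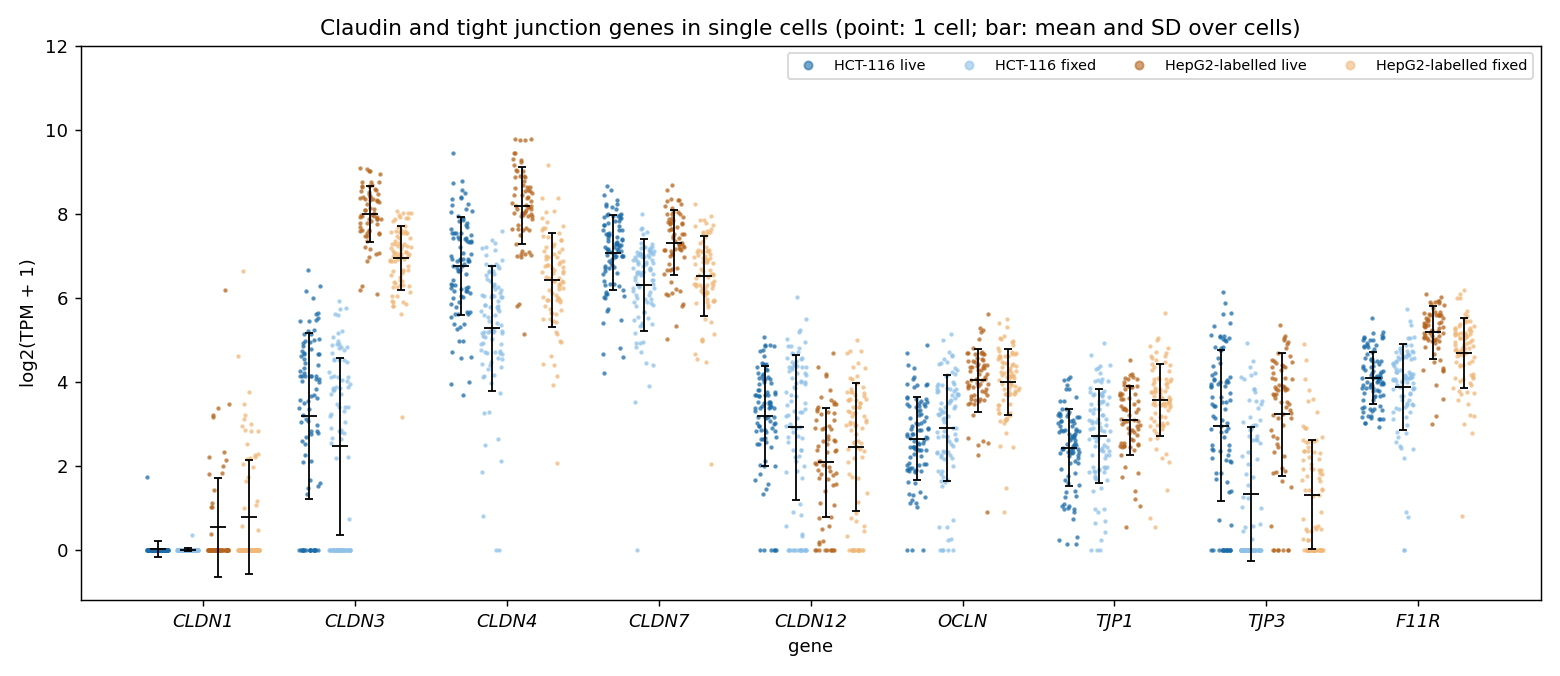
Level of each gene in every cell, as log2(TPM + 1) on the vertical axis, for the genes on the horizontal axis and the 4 groups in colour; each point is 1 cell, and the black bars give the mean and SD over cells. CLDN4, CLDN3 and CLDN7 are the highest genes, CLDN1 lies at 0 in most cells, and fixed cells sit lower than live cells for CLDN4 and TJP3.

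Fixed cells differed from live cells in the level of some of the genes. The ratio of mean TPM, fixed over live, is given on the log2 scale, and a gene counts as lower or higher where it passes a 2-fold ratio and reaches a mean of 1 TPM in either group. In HCT-116 cells 2 of the 8 members that reached this level, CLDN4 and TJP3, were at least 2-fold lower, where 10.1% of 12426 genes were. In HepG2-labelled cells 3 of 9, CLDN3, CLDN4 and TJP3, were at least 2-fold lower, where 11.3% of 13228 genes were. No member was 2-fold higher in either line, where 3.81% and 5.98% of all genes were. The median ratio over the members was -0.31 in HCT-116 and -0.43 in HepG2-labelled cells, against 0.16 and 0.14 over all genes tested. With ribosomal RNA left out, CLDN7 joined them in HCT-116, making 3 of 8, where 15.5% of all genes were then at least 2-fold lower. So few genes describe themselves and not the family.

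Among the claudin members that reached 1 TPM, CLDN4 had the ratio farthest below 0 in both lines. Its mean was 54.9 ± 41.5 TPM in fixed HCT-116 cells, 2.62-fold lower than live (log2 ratio -1.39). In fixed HepG2-labelled cells it was 110.2 ± 85.8 TPM, 3.16-fold lower (-1.66). Its median was 44.4 TPM fixed against 116.3 TPM live, and 88.5 against 291 TPM, so the lower mean was not set by a few high cells. The ranges of live and fixed cells overlapped, the fixed cells reaching from 0 to 192.4 TPM in HCT-116 and from 3.16 to 572 TPM in HepG2-labelled cells. CLDN4 was at least 2-fold lower under all 9 settings tried in HCT-116 and all 11 in HepG2-labelled cells, between -1.71 and -1.24 and between -1.79 and -1.52.

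CLDN3 and CLDN7 were lower in fixed cells too, by less. CLDN3 averaged 11.8 ± 14.2 TPM in fixed HCT-116 cells (log2 ratio -0.53) and 137.1 ± 59.3 TPM in fixed HepG2-labelled cells (-1.03). The latter lies on the 2-fold line, and the ratio of medians, -0.96, does not pass it. CLDN7 averaged 94.3 ± 47.9 TPM (-0.74) and 108.7 ± 59.1 TPM (-0.72). Each passed 2-fold under 1 of the 9 HCT-116 settings, CLDN7 with ribosomal RNA left out (-1.06) and CLDN3 with mean log2(TPM + 0.1) (-1.25). CLDN12 was 11.9 ± 11.5 TPM in fixed HCT-116 cells (0.14, and -0.63 with mean log2(TPM + 0.1)) and 7.47 ± 6.93 TPM in fixed HepG2-labelled cells (0.56), both within 2-fold. CLDN1 could be compared only in the HepG2-labelled cells, with 2.78 ± 11.2 TPM in fixed cells (0.52), a mean that rests on 26 of 83 cells.

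The scaffold TJP3 averaged 3.79 ± 5.93 TPM in fixed HCT-116 cells against 13.2 TPM live (log2 ratio -1.80, 3.48-fold lower), and 2.91 ± 4.78 TPM in fixed HepG2-labelled cells against 12.5 TPM live (-2.10, 4.30-fold lower). Its lowest, median and highest HCT-116 cells had 0, 9.24 and 69.4 TPM live and 0, 0.101 and 29.2 TPM fixed. Those of the HepG2-labelled groups had 0, 11.96 and 40.2 TPM live and 0, 1.47 and 29.05 TPM fixed. The ranges thus overlapped in both lines while the medians lay apart, and the ratio was past 2-fold under every setting run. TJP1 averaged 7.503 ± 5.84 and 12.9 ± 7.82 TPM in fixed cells, with log2 ratios of 0.47 and 0.57. Summing only the transcripts that could be matched to TJP1 gave ratios of -0.13 in HCT-116 and 0.03 in HepG2-labelled cells, so no direction is given for it in either line. The ratio of mean TJP3 over mean TJP1 went from 2.43 to 0.505 in HCT-116 and from 1.44 to 0.225 in HepG2-labelled cells, and cells with more TJP3 than TJP1 from 67.03% to 22.8% and from 60.3% to 4.82%.

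Both listed transcripts of TJP3 stood lower in fixed cells. NM_001267560.1 averaged 11.7 CPM (live) against 1.82 CPM (fixed) in HCT-116, and 12.7 against 1.599 CPM in HepG2-labelled cells. NM_001267561.1 averaged 18.2 against 7.71 CPM, and 20.5 against 5.82 CPM. CPM are not corrected for length, and these values are estimates of how reads shared by the transcripts were divided.

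F11R and OCLN stayed within 2-fold of their live levels. F11R was 16.7 ± 9.22 TPM in fixed HCT-116 cells (-0.09) and 28.3 ± 13.7 TPM in fixed HepG2-labelled cells (-0.43). OCLN was 9.17 ± 7.25 TPM (0.44) and 17.1 ± 8.51 TPM (-0.03). All ratios of both genes stayed within 2-fold under every setting.

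**Figure D2:**
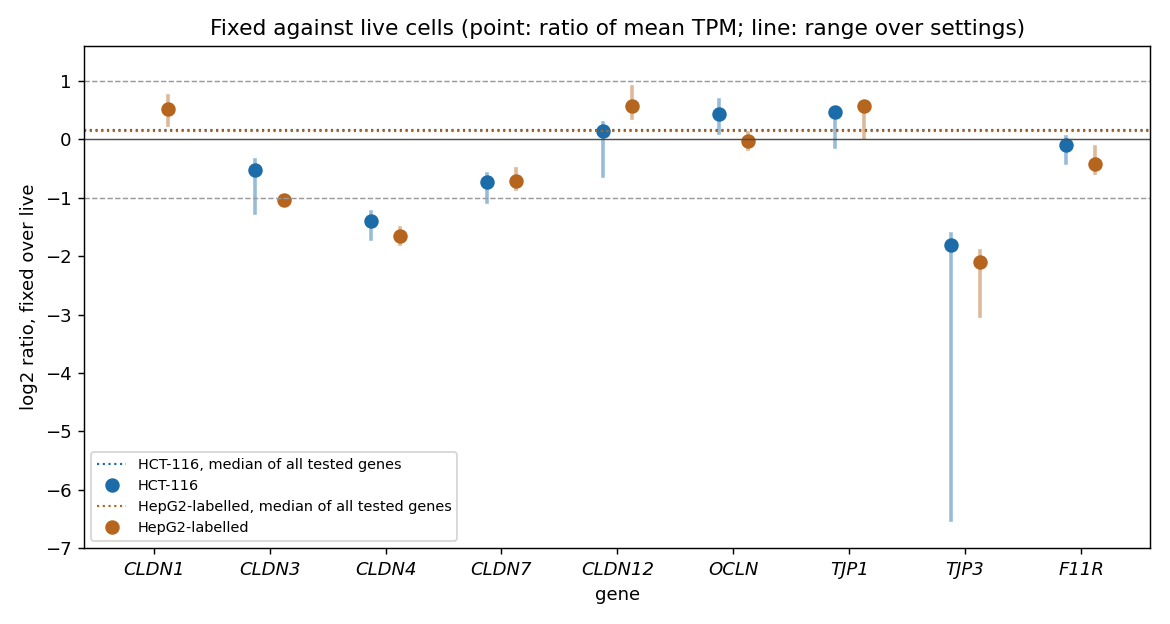
Log2 ratio of fixed over live cells on the vertical axis for each gene on the horizontal axis, with points for the ratio of mean TPM, vertical lines for its range over all settings tried, dotted lines for the median of all tested genes and dashed lines at 2-fold. TJP3 and CLDN4 lie below the lower dashed line in both lines under every setting, and the long TJP3 line comes from the ratio of medians.

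The members at least 2-fold lower in fixed cells had GC-rich messages. The reference transcripts of CLDN3, TJP3 and CLDN4 have 69.2%, 63.2% and 60.8% GC and fall in the top group when all genes tested are divided into 5 groups of equal size by GC, and CLDN7, with 55.97%, falls in the group below it. TJP1 (44.98%), F11R (46.7%), CLDN1 (41.3%), OCLN (38.8%) and CLDN12 (37.7%) are lower in GC. In both lines CLDN3, TJP3, CLDN4 and CLDN7 had the lowest ratios among the members that reached 1 TPM. Their order by ratio was not their order by GC. CLDN3, the richest in GC, had a ratio nearer to 0 than CLDN4 and TJP3 in both lines. Over all genes the median log2 ratio, fixed over live, went from 0.35 in the lowest GC group to -0.52 in the top group in HCT-116, and from 0.29 to -0.27 for HepG2-labelled cells. Of the genes in the top group 28.6% and 24.4% were at least 2-fold lower. Over all genes Spearman's rho of ratio with GC was -0.48 and -0.29, and with transcript length -0.01 in both lines. CLDN4 and TJP3 were lower than the median of their own GC group in both lines. CLDN3 was at it in HCT-116, -0.53 against -0.52, and below it in HepG2-labelled cells, -1.03 against -0.27. CLDN7 (-0.74 and -0.72) was below group medians of -0.03 and 0.06, and F11R (-0.09 and -0.43) below those of 0.22 and 0.20. GC had a value for 87.04% and 84.6% of the genes tested, genes are not independent replicates, and the part of GC in any 1 gene's ratio was not tested.

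**Figure D3:**
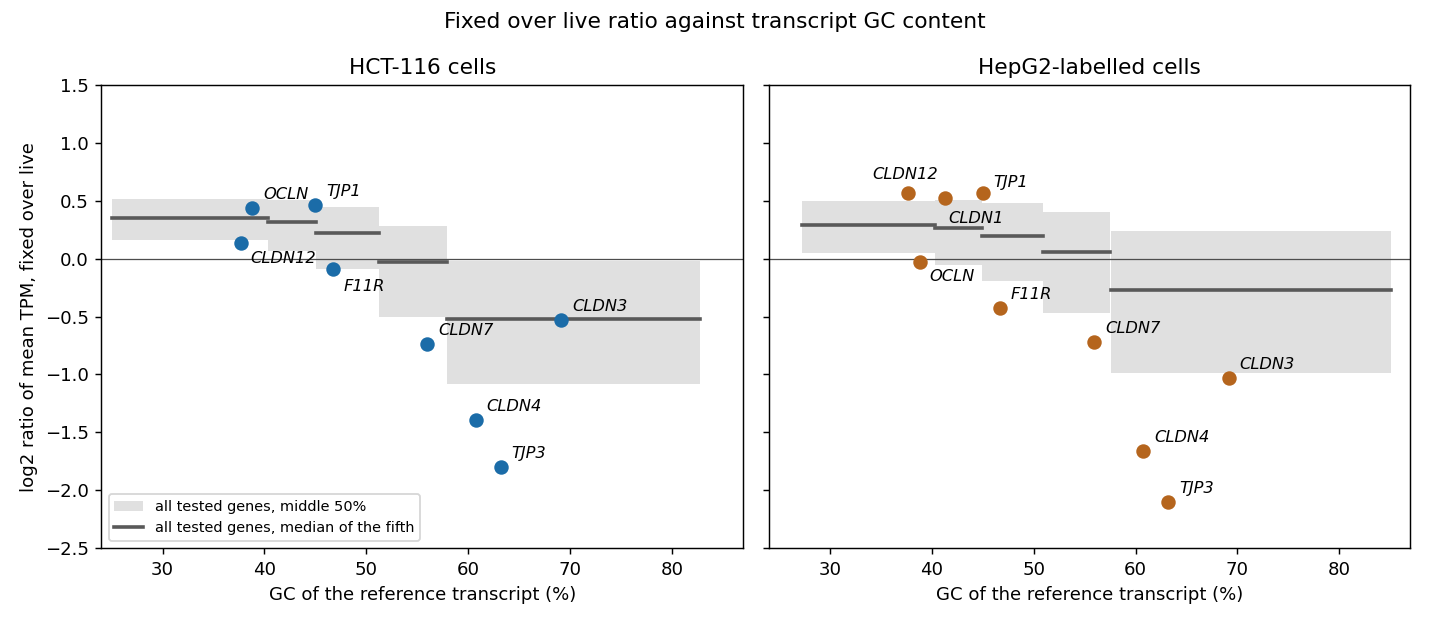
Log2 ratio of mean TPM, fixed over live, on the vertical axis against the GC content of the reference transcript in percent on the horizontal axis, in HCT-116 cells on the left and HepG2-labelled cells on the right; grey boxes give the middle 50% and grey lines the median of all tested genes in each of 5 GC groups. CLDN4, TJP3, CLDN7 and F11R lie below the box of their GC group in both lines, F11R only just so in HCT-116. CLDN3 lies below it in HepG2-labelled cells and at the median in HCT-116. CLDN12 in HCT-116 and OCLN in HepG2-labelled cells also lie below their box. CLDN12, TJP1 and CLDN1 lie above theirs in HepG2-labelled cells.

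The share of cells in which a gene was listed above 0 is given with an exact Clopper-Pearson 95% interval, which covers counting error only. TJP3 was found in 82.4% of live HCT-116 cells (73.02 to 89.6) and in 50% of fixed ones (39.4 to 60.6), and in 89.7% (79.9 to 95.8) and 66.3% (55.1 to 76.3) of the HepG2-labelled cells. CLDN3 was found in 79.1% (69.3 to 86.9) of live and 61.96% (51.2 to 71.9) of fixed HCT-116 cells, and in every HepG2-labelled cell. CLDN12 was found in 93.4% (live) and 83.7% (fixed) of HCT-116 cells, a lower share beside a mean ratio of 0.14, and in 86.8% and 81.9% of HepG2-labelled cells. With the matched transcript reads of each cell thinned to 500000 reads the TJP3 share was 80.8% live and 46.4% fixed for HCT-116, and 88.6% live and 57.4% fixed for HepG2-labelled cells, and the CLDN3 share in HCT-116 was 75.5% live and 61.4% fixed. CLDN4, CLDN7 and F11R were listed above 0 in at least 97.8% of the cells of every group. The number of members found per cell averaged 7.53 (live) and 6.83 (fixed) in HCT-116, and 8 and 7.80 among the HepG2-labelled cells. The median number of all genes found per cell was also lower in fixed cells, 10359 against 12031 in HCT-116 and 12293 against 13887 in HepG2-labelled cells, and its part in these shares was not tested.

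**Figure D4:**
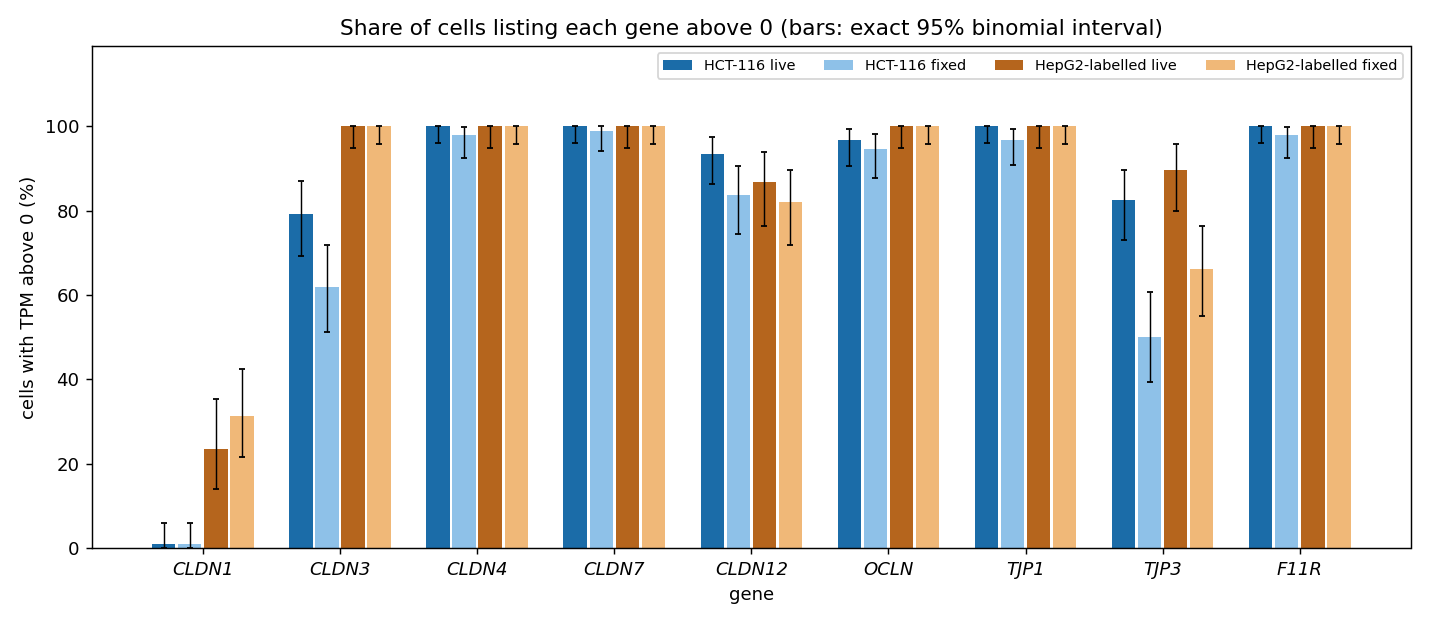
Share of cells in percent with TPM above 0 on the vertical axis, by gene on the horizontal axis and group in colour, with exact 95% binomial intervals as bars. The share is lower in fixed than in live cells for TJP3 in both lines, with intervals apart. It is also lower for CLDN12 in both lines and for CLDN3 in HCT-116, with intervals that overlap. CLDN4, CLDN7 and F11R stay near 100%.

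The lines themselves differed in which claudins they carried. In live cells 5 of the 9 members were at least 2-fold higher in HepG2-labelled than in HCT-116 cells, where 24.5% of 13560 genes were, and 1, CLDN12, was lower (-1.10), where 19.5% were. The 5 were CLDN1, CLDN3 (log2 ratio 4.04), CLDN4 (1.28), OCLN (1.36) and F11R (1.10). The CLDN1 ratio has 1 HCT-116 cell below it and is not given as a fold. In fixed cells 3 were at least 2-fold higher, CLDN1, CLDN3 (3.54) and CLDN4 (1.01), where 24.1% of genes were, and 0 were lower, where 19.1% were. CLDN3 was 16.5-fold higher in live and 11.7-fold higher in fixed HepG2-labelled cells, and its log2 ratio ran from 3.69 to 5.61 live and from 3.46 to 5.81 fixed over the settings. The live ranges still overlapped, from 67.7 to 546 TPM against 0 to 99.7 TPM. CLDN7 was at about the same level in both lines (0.19 and 0.20). CLDN4 in fixed cells lies on the 2-fold line and passed it under 7 of 10 settings. With ribosomal RNA left out, CLDN4 and F11R were within 2-fold in live cells, at 0.93 and 0.76.

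Over the 21 listed claudins the summed mean for HCT-116 was 343 ± 156.5 TPM live and 187.8 ± 74.3 TPM fixed, and for HepG2-labelled cells 854 ± 338 TPM live and 416 ± 168.02 TPM fixed. The make-up of this sum also differed. CLDN4 supplied 41.9% of it (live) and 29.2% (fixed) in HCT-116, and 40.8% and 26.5% in HepG2-labelled cells. CLDN7 went from 45.9% to 50.2% and from 20.95% to 26.1%, and CLDN3 from 4.96% to 6.27% and from 32.8% to 33%. The ratio of mean CLDN4 over mean CLDN7 went from 0.914 to 0.582 and from 1.95 to 1.01, and cells with more CLDN4 than CLDN7 from 39.6% to 20.7% and from 88.2% to 51.8%.

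**Figure D5:**
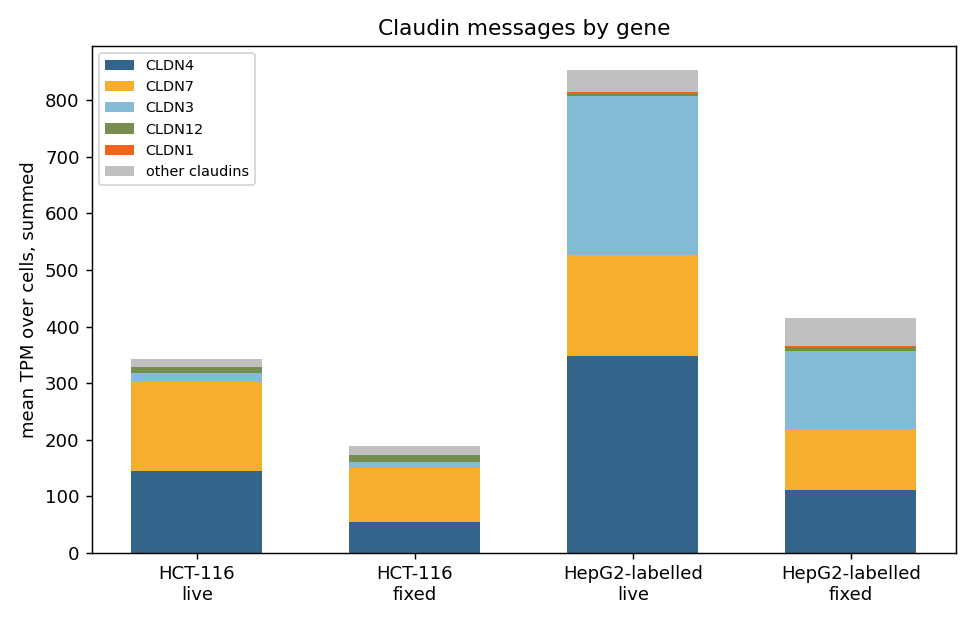
Summed mean TPM of all claudin rows on the vertical axis for each group on the horizontal axis, split by gene. The bars reach 343 (live) and 187.8 TPM (fixed) for HCT-116, and 854 and 416 TPM for HepG2-labelled cells, with CLDN4 making up less of it in fixed cells.

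Other genes of the junction were read from 3 lists: 30 further membrane genes, 25 plaque and polarity genes and 20 epithelial regulators and claudin partners. Of the membrane genes 9 reached 1 TPM in HCT-116, of which 2 were at least 2-fold lower in fixed cells and 0 higher. In HepG2-labelled cells 11 did, with 2 lower and 1 higher. Over all genes tested 10.1% (HCT-116) and 11.3% (HepG2-labelled) were lower, and 3.81% and 5.98% higher. CLDN23 was lower in both lines (-2.42 and -1.10), CLDN15 in HCT-116 (-1.28) and ILDR1, a tricellular junction protein, in HepG2-labelled cells (-1.13), all at levels below 6 TPM. The one higher gene was CLDN11, from 14.2 to 33.05 TPM (1.22, and 0.85 with median-of-ratios scaling), which shares 22.6% of its 31-base words with other genes. CRB3, LSR and MARVELD2 (tricellulin) stayed within 2-fold in both lines, and so did CXADR except with median-of-ratios scaling in HepG2-labelled cells (-1.08).

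Of the plaque and polarity genes 19 reached 1 TPM in each line, with 3 lower and 1 higher in HCT-116 and 2 lower and 0 higher in HepG2-labelled cells. These counts stand beside the same shares of all genes, 10.1% and 11.3% lower and 3.81% and 5.98% higher. AMOTL2, an angiomotin family protein, was lower in both, from 13.9 to 3.42 TPM (-2.02) and from 28.01 to 4.55 TPM (-2.62). CGN, the scaffold cingulin, was lower in HepG2-labelled cells, from 9.14 to 3.35 TPM (-1.45). ARHGEF2 (-1.53) and PARD6G (-1.19) were lower in HCT-116, where the 1 higher gene was MLLT4 (afadin, 1.03), named after its value was seen and within 2-fold under both other scalings. PARD6B, a polarity protein, averaged 134.6 ± 66.3 TPM live and 117.2 ± 50.3 TPM fixed among HepG2-labelled cells, against 8.85 and 7.53 TPM in HCT-116. YBX3, PATJ, PRKCI and MAGI3 stayed within 2-fold where they reached 1 TPM.

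Of the regulators and partners 13 and 15 reached 1 TPM, with 2 lower and 0 higher in HCT-116 and 2 lower and 2 higher in HepG2-labelled cells. Again 10.1% and 11.3% of all genes were lower, and 3.81% and 5.98% higher. ESRP2, an epithelial splicing regulator, was lower in both (-1.56 and -1.18), and OVOL1 in HCT-116 (-1.06). KLF5 (1.39) and SNAI2 (1.85) were the 2 higher ones, SNAI2 from 1.69 to 6.08 TPM. With median-of-ratios scaling their ratios were 1.06 and 1.03, close to the 2-fold line. SNAI2 was listed above 0 in 26.5% of live and 37.3% of fixed HepG2-labelled cells, with an SD of 16.2 TPM in the fixed ones. EPCAM, which binds CLDN7, stayed at 306 and 402 TPM in HCT-116 and at 234 and 239 TPM in HepG2-labelled cells, and SPINT2 and ELF3 within 2-fold. SPINT1, an inhibitor of membrane proteases, had ratios of -0.59 and -0.88. With median-of-ratios scaling 4 regulators in place of 2 were at least 2-fold lower in HepG2-labelled cells, SPINT1 (-1.05) and OVOL1 (-1.04) being added. The median ratio was 0.19 (HCT-116) and -0.27 (HepG2-labelled) over the membrane genes, -0.23 and 0.15 over the plaque genes, and -0.18 and -0.29 over the regulators. Over members and lists together, 5 of 17 genes in the top GC group and 4 of 30 in the other groups were at least 2-fold lower in HCT-116, and 6 of 19 and 3 of 33 in HepG2-labelled cells. Over all genes the top group had the 28.6% and 24.4% given above, and the other groups from 1.80% to 9.89% and from 2.59% to 10.7%, so the counts describe these genes only.

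The genes compared were the 8945 listed above 0 in at least 50% of the cells of each group. Across cells of 1 group, CLDN3 went with CLDN4 more than with any other of them. The mean Spearman's rho was 0.44 over the 4 groups, from 0.42 to 0.46. This is a description over 334 cells, which are not independent cultures within a group, and the pair shares reads as stated above. CLDN4 was next most like ELF3 (0.41, from 0.17 to 0.64 over the groups), an epithelial transcription factor, and SPINT2 (0.39, from 0.28 to 0.48). CLDN7 was most like EPCAM (0.43, from 0.20 to 0.59), AP1M2 (0.41, from 0.21 to 0.52) and GALNT3 (0.38, from 0.26 to 0.47). The nearest genes of the other members reached 0.36 for F11R (OPTN, from 0.19 to 0.57) and 0.33 for TJP3 (TBC1D8, from 0.23 to 0.43). OCLN reached 0.31 (QRSL1, from 0.10 to 0.43). CLDN12 (STX7, from 0.18 to 0.31) and TJP1 (NDE1, from 0.06 to 0.40) both reached 0.27, and CLDN1 had too few cells for a value.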

How the data were processed

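Live and methanol-fixed cells of 2 lines were measured by Smart-seq2. The authors deposited gene tables as TPM, made with kallisto 0.46.0 against GRCh38 transcripts and summed to genes by tximport, and transcript tables of CPM, which the deposited values do not correct for length. FastQC is named in the submitters' processing notes. Per the methods the authors kept cells with more than 4000 genes. All columns could be placed in a group by name and 0 could not. The column numbers do not match those of the titles.

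Means, SDs, medians and shares were computed over cells with Python 3.11.15, numpy 2.4.6, pandas 2.3.3 and scipy 1.17.1, and figures drawn with matplotlib 3.10.9. The log2 ratio is that of mean TPM, genes under 1 TPM in both groups were left out, and a 2-fold ratio was the threshold. The labels tell no replicates apart, so no test was run. Total reads per cell were inferred from the step between these CPM values, to 0.1 M. Read depth, thinning and pairing on reads rest on that reading of the transcript tables. Alternatives were ratios of medians, log2 means with a pseudocount of 1 or 0.1, median-of-ratios scaling over genes found in 90% of cells, ribosomal RNA left out, matched transcript CPM, thinned reads, cells paired on total reads and columns left out. The calculations were tested on simulated data.

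Members and lists were chosen with earlier results of these data known. Named besides the members are the 5 highest genes of each list, the 3 with the largest ratio in each line that reach 1 TPM, and the 3 most like each member. GC and length came from GENCODE v44 MANE Select or canonical transcripts. Protein sequences are not used here. A gene of the list of regulators and partners is counted in that list but is not reported here by name.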

Additional observations from a re-analysis of the deposited data

Results flagged for a closer look

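OCLN stood out because its log2 ratio, fixed over live, had opposite signs in the lines, 0.44 in HCT-116 and -0.03 in HepG2-labelled cells, a difference of -0.46. The difference was not tested, since each group is 1 sample. The HepG2-labelled value lies near 0 and ranged from -0.17 to 0.11 over the settings, while the HCT-116 value ranged from 0.11 to 0.68.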

How the results depend on the processing

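The settings include 1 added after seeing the data, cells with at least 1 M reads and 50% of reads assigned, and the counts of members found in 90% of cells were also added then. Of the counts of members past 2-fold or found in 90% of cells, 5 moved beyond 1.5 times the main count and the others did not. Live HepG2-labelled over HCT-116 cells had 3 members at least 2-fold higher in place of 5 with ribosomal RNA left out. The share of all genes was then 18.5% in place of 24.5%. With matched transcript CPM 0 members were lower in place of 1, and 16.7% of all genes in place of 19.5%. Fixed cells had 5 members higher in place of 3 with mean log2(TPM + 0.1), and 32.4% of all genes in place of 24.1%. Fixed HCT-116 cells had 3 members in at least 90% of cells in place of 5, both with TPM above 1 and with matched transcript reads thinned to 500000 a cell, where TJP1 stood at 70.65% by matching alone and 67.3% after thinning. The cause was not tested, and the share of all genes found in 90% of cells was not computed. No called ratio turned its sign. The median over all genes moved from 0.16 to 0.01 in HCT-116 and from 0.14 to -0.04 in HepG2-labelled cells with median-of-ratios scaling, and to -0.15 and 0.08 with ribosomal RNA left out, and the members' medians were then -0.46 and -0.58, and -0.63 and -0.49. TJP3 ratios reached -6.51 and -3.03 as ratios of medians, since its fixed HCT-116 median was 0.101 TPM. The ratios of TJP1 between lines turned to -0.48 live and -0.33 fixed with matched CPM. No paired analysis was possible because each group is 1 sample and the column numbers do not match those of the labels. Depth limits what a listed 0 shows, as for CLDN1 and TJP3, where it does not show that the message was absent.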

Other observations

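CLDN1 was uneven between cells of the HepG2-labelled groups. Most cells were listed at 0, the highest live cell had 71.4 TPM and the highest fixed cell 98.2 TPM, so its mean follows a few cells. Its level went with total reads in live cells (Spearman's rho 0.42 over 68 cells) and not in fixed cells (-0.11 over 83), values given as a description, since cells of a group are not independent cultures.

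Total reads went with the level of F11R (0.49) and CLDN4 (0.40) among live HepG2-labelled cells, and less so among the fixed ones (0.30 and 0.05). In HCT-116 the same values were 0.25 and -0.09 live, and 0.02 and 0.21 fixed. Their part in the differences between live and fixed cells was not tested, and with cells paired on total reads CLDN4 stayed at least 2-fold lower in fixed cells of both lines.

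The balance of CLDN4 to F11R was also lower in fixed cells. The ratio of their means was 8.07 (live) and 3.28 (fixed) in HCT-116, and 9.14 and 3.89 for HepG2-labelled cells. Within cells that listed both, the median log2 ratio was 2.84 and 1.55 in HCT-116, and 3.02 and 1.81 for HepG2-labelled cells. CLDN7 over F11R went from 8.83 to 5.64 and from 4.69 to 3.84, with the tables of the lines deposited separately.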
